A study of Mus musculus with 2 samples.

Results

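Toll-like receptors are the germline-encoded sensors with which cells detect microbial molecules, and 10 genes of this system were followed here across 2 populations of mouse blood progenitors. The members were 4 receptors of the cell surface (Tlr1, Tlr2, Tlr4 and Tlr6), 3 receptors of endosomes (Tlr3, Tlr7 and Tlr9), the co-receptor gene Cd14, and the adaptor genes Myd88 and Ticam1. Their probes were found by gene name, through the transcript accession of each probe, and not by any measured value. The set of members itself was chosen with earlier results of these data known. All 10 had a probe, 11 probes in all, among 20655 named genes and 55664 probes. Of these 10 genes, 8 were well above background on both arrays, and Tlr1 and Tlr3 were not well above background on either.

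The cells were LSK cells, which lack the markers of mature blood lineages, carry Sca-1 and c-Kit, and hold the stem cells and multipotent progenitors of blood. One sample came from adult bone marrow of C57BL/6 mice at 8 weeks and the other from fetal liver at E14.5, for which no strain is given in the sources used here. Both were labelled wild type and not transplanted, and both were sorted by flow cytometry from freshly isolated tissue. Each group had 1 single-colour Agilent array, so differences have no replicate check, no test was made, and age, tissue and array cannot be told apart.

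In mature myeloid cells the surface receptors bind lipids and proteins of microbes, and the endosomal receptors bind nucleic acids. Ligand binding brings adaptor proteins to the receptor, MYD88 for most receptors and TRIF (the product of Ticam1) for TLR3 and for TLR4 after uptake, and these start kinase cascades that activate NF-κB and interferon regulatory factors. Blood stem and progenitor cells are known to carry some of these receptors and to respond to their ligands.

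Levels are given as the processed signal, a linear brightness after background subtraction, and as the scaled log2 signal, in which 0 is the 75th percentile of that array. That percentile was 178.9 (bone marrow) and 134.0 (fetal liver). A difference is the scaled log2 signal of fetal liver minus that of bone marrow, so a negative value is a higher level in bone marrow, and the figure after ± is the technical error of the scanner software. Signals of different probes depend on the probe and set no order between genes. The sort labels could be set against 8 genes of stem and progenitor cells, all well above background on both arrays, among them Kit (0.00 ± 0.20), Cd34 (-0.13 ± 0.20) and Ly6a, which encodes Sca-1 (-2.28 ± 0.20). Of all 13370 genes measured, 900 (6.73%) passed 2-fold on the fetal liver side and 1094 (8.18%) on the bone marrow side, and the median difference was 0.11. Fetal liver held 45.1% of these calls, and 22.5% when the arrays were scaled by spike-in RNA, a setting that subtracts 0.33 from each measured difference and moves the median of all genes to -0.23.

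Among the members, the co-receptor gene Cd14 and the receptor gene Tlr6 passed 2-fold on the bone marrow side, and 0 members did so on the fetal liver side. These are 2 of the 8 measured members, beside 8.18% of all genes. The other 6 measured members, Tlr2, Tlr4, Tlr7, Tlr9, Myd88 and Ticam1, lay between -0.38 and 0.25. The median of the 8 was -0.03, with 4 positive and 4 negative. Under spike-in scaling, which subtracts 0.33 from each measured difference, all 8 were negative with a median of -0.37. Beside them, 9012 of all 13330 genes were negative under that scaling, with a median of -0.23. In a bulk sample, fewer cells that carry a transcript and less of that transcript per cell cannot be told apart.

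**Figure D1:**
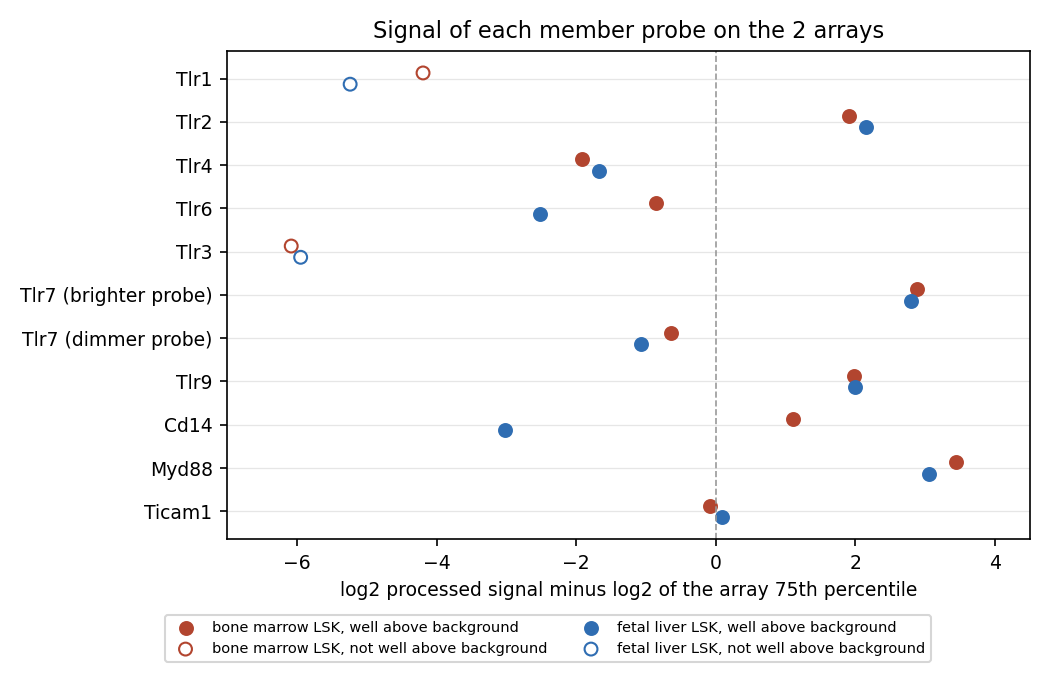
Scaled log2 signal (horizontal axis, 0 is the array's 75th percentile) of the 11 member probes on the bone marrow and fetal liver arrays, 1 array each. Filled points are well above background and open points are not. Cd14 (1.11 against -3.03) and Tlr6 (-0.86 against -2.51) show the widest gaps among probes above background.

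Cd14 encodes the surface protein that hands bacterial lipopolysaccharide to the receptor complex of TLR4. Its signal was 387 in bone marrow and 16.5 in fetal liver, or 1.11 and -3.03 on the scaled log2 axis. The fetal liver signal lay close to 9.82, the lowest signal that still counted as well above background there. The difference of -4.14 ± 0.30 corresponds to a 17.6-fold higher level in bone marrow, and it was -2.22 after normexp background correction, which adds an offset and draws dim signals together.

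The other genes of lipopolysaccharide recognition gave smaller differences in either direction. Tlr4, the signalling receptor itself, had signals of 47.5 (bone marrow) and 42.0 (fetal liver), a difference of 0.24 ± 0.23 that turned to -0.10 under spike-in scaling. Its 2 spots gave 42.6 and 52.4 in bone marrow and 38.05 and 45.97 in fetal liver, so the spots of the arrays overlapped. Ly96, which encodes MD-2, the protein that binds lipopolysaccharide on TLR4, went the other way, with 171 in bone marrow and 280 in fetal liver (1.13 ± 0.21, 2.19-fold higher in fetal liver, but short of 2-fold at 0.79 under spike-in scaling and 0.92 with normexp correction). Lbp, the lipopolysaccharide-binding protein, differed by -0.40 ± 0.20. Of Cd14, Tlr4, Ly96 and Lbp, 1 passed 2-fold on each side and 2 were under 2-fold. Of all genes, 8.18% passed on the bone marrow side and 6.73% on the fetal liver side. The related pair Cd180 and Ly86, a receptor and its partner resembling TLR4 and MD-2, gave at least 1.25-fold higher in fetal liver for Cd180, from a signal of 11.6 against 6.34 not well above background, and -0.88 ± 0.20 for Ly86.

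TLR2 pairs with TLR1 or TLR6 to bind bacterial lipopeptides, and of the genes of these partners only Tlr6 was well above background. Tlr6 had signals of 98.5 (bone marrow) and 23.5 (fetal liver), which is 3.15-fold higher in bone marrow (-1.65 ± 0.25). With normexp correction the difference was -0.64, under 2-fold, and with spike-in scaling it was -1.99. Tlr1 had signals of 9.78 and 3.55, neither well above background, so no fold is given for it.

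Tlr2 was printed as 10 spots on each array, which shows the technical spread directly. The bone marrow spots ran from 632 to 690 with a median of 673, and the 9 fetal liver spots used ran from 573 to 623 with a median of 604. The tenth fetal liver spot, at 669, was marked as an outlier by the image software and left out. After scaling, every fetal liver spot (2.10 to 2.22) lay above every bone marrow spot (1.82 to 1.95), and the SD between spots was 0.04 on each array. The difference of 0.25 ± 0.20 was therefore larger than the spread between spots, yet it was -0.08 under spike-in scaling, and spots of 1 hybridisation carry no spread between animals.

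**Figure D2:**
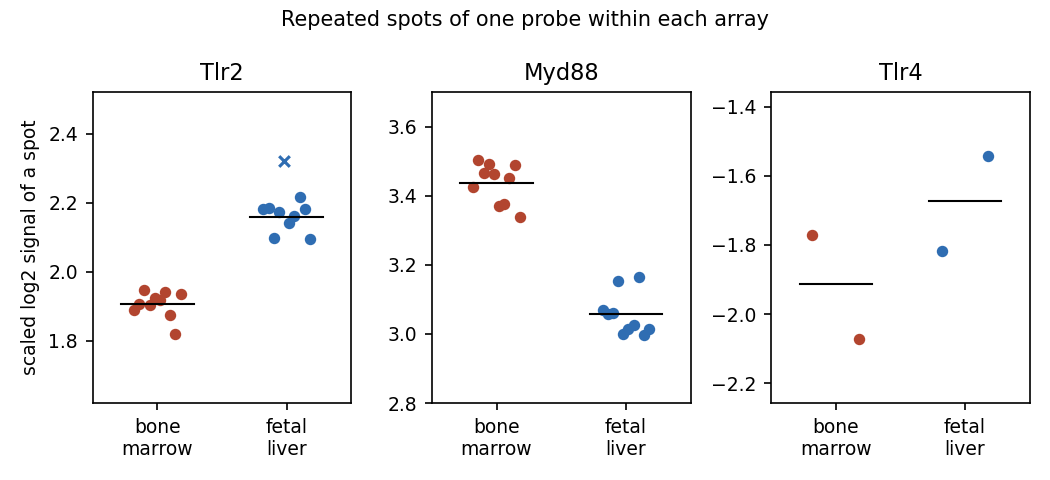
Scaled log2 signal of each repeated spot of the Tlr2, Myd88 and Tlr4 probes on the bone marrow and fetal liver arrays; the line is the log2 of the mean signal of the spots used and the cross is the outlier spot left out. The spots separate for Tlr2 (1.82 to 1.95 against 2.10 to 2.22) and Myd88 (3.34 to 3.50 against 3.00 to 3.16) and overlap for Tlr4; each panel spans the same range.

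The endosomal receptors with a measurable signal were nearly level. Tlr7, the receptor for single-stranded RNA, gave 1319 (bone marrow) and 934 (fetal liver) on its brighter probe (-0.08 ± 0.20) and 115 and 64.0 on its other probe (-0.43 ± 0.21). Both probes placed it under 2-fold, on the bone marrow side. Tlr9, the receptor for unmethylated CpG DNA, had 707 and 536 (0.02 ± 0.20, and -0.32 under spike-in scaling), a difference whose sign also turned with normexp correction and with quantile normalization. Tlr3, the receptor for double-stranded RNA, had signals of 2.64 and 2.17, close to the negative control medians of 2.70 and 2.27.

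Unc93b1, which encodes the escort of the nucleic acid receptors to the endosome, differed by -0.48 ± 0.20, from signals of 2864 and 1536. Among the receptors outside the 10 members, Tlr12, which recognises profilin of protozoan parasites together with TLR11, had signals of 497 (bone marrow) and 1765 (fetal liver). That is 4.74-fold higher in fetal liver (2.24 ± 0.20, and 1.91 under spike-in scaling), by its single probe. Tlr13, a sensor of bacterial ribosomal RNA, differed by -0.24 ± 0.21, and Tlr5, Tlr8 and Tlr11 were not well above background on either array.

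The adaptors were under 2-fold. Myd88 had 10 spots per array, from 1809 to 2027 (median 1963) in bone marrow and from 1071 to 1202 (median 1104) in fetal liver. After scaling, the spots did not overlap, at 3.34 to 3.50 in bone marrow and 3.00 to 3.16 in fetal liver, and the SD between spots was 0.06 on each array. The difference was -0.38 ± 0.20, or 1.30-fold higher in bone marrow. It stayed negative under all 9 alternatives (-0.72 to -0.38), some of which could not change a gene with 1 bright probe. Ticam1 had signals of 170 and 143, a difference of 0.16 ± 0.21, within its technical error, and of -0.17 under spike-in scaling. Both bridging adaptors gave lower values in fetal liver, with Tirap, which links MYD88 to TLR2 and TLR4, at -0.74 ± 0.22, and Ticam2, which links TRIF to TLR4, at least 1.11-fold higher in bone marrow from a signal of 14.6 against 7.12 not well above background.

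**Figure D3:**
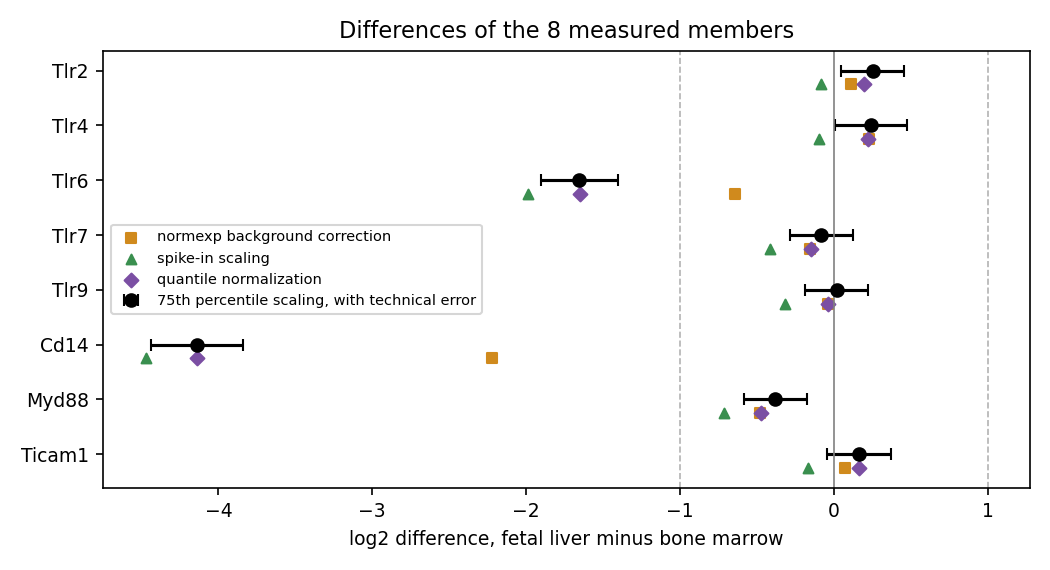
Log2 difference, fetal liver minus bone marrow, of the 8 measured members; black points with bars are the values after scaling to the 75th percentile with their technical error, and coloured points are 3 alternative settings. Dashed lines mark 2-fold. Cd14 stays beyond 2-fold in every setting shown, Tlr6 does not with normexp correction (-0.64), and Tlr2, Tlr4, Tlr9 and Ticam1 are negative with spike-in scaling.

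The region before the start site is shown for 3 genes, Tlr6 and Tlr12 because they were the receptor genes past 2-fold, in opposite directions, and Myd88 because most surface and endosomal receptors share it. The sequences are from RefSeq (build GRCm38.p6), 5′ to 3′ on the minus strand, at chr5:64960049-64960298 for Tlr6, chr4:128618620-128618869 for Tlr12 and chr9:119340019-119340268 for Myd88. Each covers the 250 bases before the start. Capitals mark matches to 4 short motifs searched on both strands, namely the inner form of the interferon response element (GAAA, any 2 bases, GAAA), a PU.1 form (GAGGAAG), a STAT form (TTCNNNGAA) and an NF-κB form (GGG, any 5 bases, CC). The Tlr6 window belongs to a start 10894 bases inside the gene model, so it is not its outermost start.
Tlr6: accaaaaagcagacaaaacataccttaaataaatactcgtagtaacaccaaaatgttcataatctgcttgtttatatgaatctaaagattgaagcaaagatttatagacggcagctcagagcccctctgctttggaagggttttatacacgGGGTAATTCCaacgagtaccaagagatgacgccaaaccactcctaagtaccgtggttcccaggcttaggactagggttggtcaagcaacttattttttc
Tlr12: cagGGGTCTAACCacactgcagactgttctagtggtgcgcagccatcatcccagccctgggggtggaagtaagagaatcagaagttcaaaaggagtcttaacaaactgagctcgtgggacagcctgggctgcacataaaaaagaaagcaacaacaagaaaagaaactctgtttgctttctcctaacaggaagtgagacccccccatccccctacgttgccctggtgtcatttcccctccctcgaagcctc
Myd88: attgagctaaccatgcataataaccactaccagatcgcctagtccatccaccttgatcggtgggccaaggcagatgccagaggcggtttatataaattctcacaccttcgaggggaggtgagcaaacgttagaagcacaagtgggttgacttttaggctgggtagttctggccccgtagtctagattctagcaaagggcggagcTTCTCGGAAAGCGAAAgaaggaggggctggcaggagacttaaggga

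The window shown for Tlr6 and that of Tlr12 each held 1 match to the NF-κB form. The other Tlr6 window of the table, for a second start, held 2 matches to the interferon response form and 0 to the NF-κB form. The Myd88 window held the STAT form at 46 bases and the interferon response form at 40 bases before the start, overlapping each other. Promoter windows were found for 7 of the 10 members, 9 windows in all, and not for Tlr4, Tlr7 and Cd14. Of the 9, 2 held the interferon response form, which 2.98% of all 32851 windows hold, 3 the PU.1 form (10.6% of all), 2 the STAT form (7.02%) and 4 the NF-κB form (45.8%). These matches describe letters in a window and show no binding.

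Inhibitors, transcription factors and target genes of the pathway included many with a higher level in bone marrow. A list of 93 other pathway genes, chosen with earlier results of these data known, had a probe for 92, of which 80 were measured. Of these, 22 passed 2-fold on the bone marrow side (8.18% of all genes did) and 4 on the fetal liver side (6.73% of all genes did). The median difference was -0.39, against 0.11 for all genes, and 54 of the 80 were lower in fetal liver, against 42.3% of all genes. Spike-in scaling gave 33 and 2 of 79 measured, beside 1757 and 509 of all 13330 genes measured under that scaling. Because of how the list was chosen, its counts only describe it and are no independent check.

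Of the 15 measured negative regulators, 7 passed 2-fold on the bone marrow side and 0 on the other, with a median of -0.74. Of all genes, 8.18% and 6.73% passed on these sides. Zc3h12a, a ribonuclease that degrades inflammatory transcripts, gave 611 (bone marrow) and 32.5 (fetal liver), 14.1-fold higher in bone marrow (-3.82 ± 0.23, and -2.55 with normexp correction). Nfkbia, which encodes the NF-κB inhibitor IκBα, had 28707 and 3980 (-2.43 ± 0.20). Atf3, a stress-induced repressor, was at -2.32 and Nfkbiz, an atypical IκB protein, at -2.002. Many of these genes are themselves switched on by NF-κB, and they are read here only as levels.

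The transcription factors had a median of -0.78 over 10 genes. Of these, 3 passed 2-fold, all on the bone marrow side, where 8.18% of all genes did (6.73% on the other side). With spike-in scaling 7 of the 10 did, beside 1757 of all 13330 genes, and the median was -1.12, against -0.23 for all genes. The 3 were Irf1 (-2.12 ± 0.20) and Irf7 (-1.58 ± 0.21), both interferon regulatory factors, and the NF-κB subunit gene Relb (-1.28 ± 0.21). Irf1 rests on its brightest probe, and its probes ran from -2.12 to -0.08, with a mean of -1.10. Irf3, the factor that acts after TRIF, lay on the other side at 0.60 ± 0.20. The 23 kinases and ubiquitin ligases were centred near all genes, with a median of 0.05 that turned to -0.29 under spike-in scaling. Of these, 1 passed 2-fold on each side (3 in bone marrow and 0 in fetal liver under spike-in scaling), the kinase gene Map3k8 at -2.32 ± 0.25 and Ube2n, a ubiquitin-conjugating enzyme, at 1.12 ± 0.20. The probes of Ube2n disagreed, from -0.23 to 1.12, with a mean of 0.44. With normexp correction Irf7 (-0.97), Relb (-0.995), Map3k8 (-0.93) and Ube2n (0.81) were all under 2-fold, and Ube2n was so under spike-in scaling (0.78) too. Among 10 measured accessory proteins, Ly96 and Lrrc32 passed 2-fold on the fetal liver side, while under spike-in scaling 1 gene passed on each side. Lrrc32 (2.32 ± 0.21, and 1.56 with normexp correction) encodes a docking protein of latent TGF-β, not a known part of Toll-like receptor signalling, although it stood in the list.

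**Figure D4:**
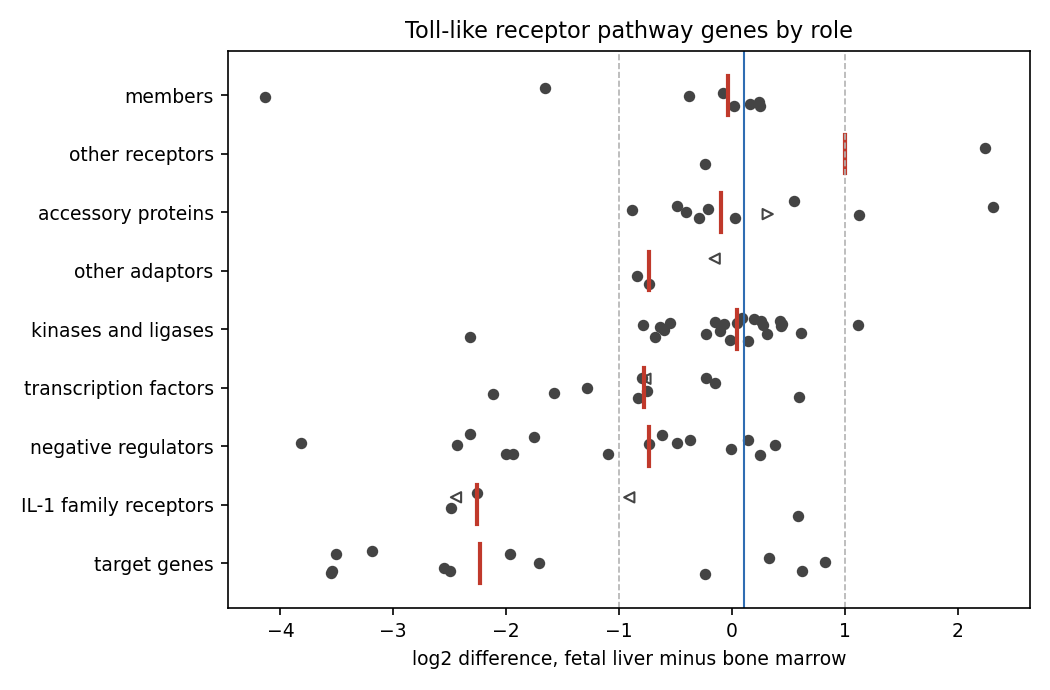
Log2 difference, fetal liver minus bone marrow, of measured members and of other pathway genes by role; each point is a gene, open triangles are bounds that point towards the larger difference, red bars are the medians of each role and the blue line is the median of all genes (0.11). Dashed lines mark 2-fold. Negative regulators (-0.74), transcription factors (-0.78), interleukin-1 family receptors (-2.26) and target genes (-2.23) have the lowest medians beside the other adaptors (-0.74), while the members are centred at -0.03.

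Receptors of the interleukin-1 family also signal through MYD88. Of 5 measured, 3 passed 2-fold on the bone marrow side (8.18% of all genes did). Il1r1, the signalling receptor for interleukin-1, had 453 in bone marrow and 70.9 in fetal liver (-2.26 ± 0.21, and -1.66 with normexp correction), and Il1r2, its decoy, had 541 and 72.2 (-2.49 ± 0.21). Il18r1 exceeded its fetal liver level at least 5.44-fold, from a signal of 71.3 against 3.74 not well above background, and was under 2-fold with normexp correction (-0.67) and at -1.47 as the mean of its probes. Of 12 measured target genes of the pathway, 8 passed 2-fold on the bone marrow side and 0 on the other. Of all genes, 8.18% and 6.73% did. The median of the target genes was -2.23. The chemokine gene Cxcl10 had 1033 and 66.2 (-3.55 ± 0.21), Il10, an anti-inflammatory cytokine, 259 and 16.7 (-3.54 ± 0.29), Ccl5 1085 and 71.3 (-3.51 ± 0.21), and Ptgs2, the inducible cyclooxygenase, 880 and 72.3 (-3.19 ± 0.21). With normexp correction these 4 were at -2.77, -1.80, -2.85 and -2.496. Not all targets did so, with 3 of the 12 positive, and Il6, Ifnb1, Cxcl1 and Cd40 were not well above background on either array.

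Marker gene lists named after cell types, chosen with earlier results of these data known, were read beside these values. Which cells carried each signal was not tested. After scaling to the 75th percentile, 8.18% of all genes passed 2-fold on the bone marrow side and 6.73% on the fetal liver side. Of 12 neutrophil marker genes 11 were measured, and 6 passed 2-fold on the bone marrow side and 0 on the other. The median was -1.09, with 8 of the 11 negative. Chil3 (-4.67 ± 0.26, and -2.91 with normexp correction) and Retnlg (at least 13.5-fold, and -1.41 on the log2 scale with normexp correction) showed the widest gaps, while Mmp9 was dim (not well above background) on both arrays. The summed level of this list, in units of each array's 75th percentile, was 283 in bone marrow and 286 in fetal liver. Csf3r, S100a8 and S100a9 held 90.05% and 96.3% of it, and the other 9 genes summed to 28.2 and 10.698. Sums of this kind include dim genes and weigh each gene by the brightness of its probe, so their shares set no order between genes. Of 13 monocyte and macrophage markers 11 had a probe and 8 were measured, of which 0 passed 2-fold on the bone marrow side and 1, Fcgr1 (at least 5.41-fold, and under 2-fold at 0.81 with normexp correction), on the fetal liver side. Spike-in scaling gave 1 on each side. Their summed level was 59.9 in bone marrow and 66.1 in fetal liver, of which Csf1r, Itgam and Lyz2 held 98.2% on each array, and the macrophage genes Mertk, Cd163 and C1qa were not well above background on either array. Of 8 B cell genes 3 were measured, and Jchain, the joining chain of antibodies, passed 2-fold on the bone marrow side (at least 15.7-fold, and -1.86 on the log2 scale with normexp correction). Cd79b had signals of 4030 and 3974 (0.40 ± 0.20), Vpreb1 differed by -0.75 ± 0.21 (-1.09 under spike-in scaling), and Cd79a, Ms4a1, Pax5 and Ebf1 were among the genes dim on both arrays. Of 8 T and NK cell genes 6 were measured, with Gzma (at least 8.15-fold, and 1.22 on the log2 scale with normexp correction) past 2-fold in fetal liver and Ccl5 in bone marrow. Of 6 endothelial genes 5 were measured, with Cdh5 (at least 4.53-fold, but under 2-fold at 0.84 with normexp correction) and Plvap (1.65 ± 0.21) past 2-fold in fetal liver. The probes of Plvap ran from 0.82 to 1.65, with a mean of 1.24. Pecam1 lay on the bone marrow side at -0.84 ± 0.23 (-1.17 under spike-in scaling), while Kdr (0.61 ± 0.20) and Stab2 (0.51 ± 0.43) were positive. Of 6 hepatocyte genes 3 were measured, with Afp (-1.26 ± 0.20) past 2-fold in bone marrow and Alb, Ttr and Apoa1 dim on both arrays. The other measured hepatocyte genes, Apoa2 (0.24 ± 0.20) and Hnf4a (0.09 ± 0.20), were positive, and the median was 0.09. The part of these cell type markers in the levels of Cd14, Tlr6 and the target genes was not tested.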

How the data were processed

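Per the file headers, the authors' deposited intensity values come from Agilent Feature Extraction 10.7.1.1, which writes a background-subtracted processed signal per spot with its error, the median spot and background signals, and flags of 0 or 1; arrays were designed on mm9 and are not scaled to each other. The deposited value table holds a linear ratio, which equals the processed signal over 1 constant per array within 0.1% for 99.99% of 55232 probes printed once, and it was used as an alternative. Its column medians were 0.0589 and 0.0604; the choice of those constants: not given in the sources used here.

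Outlier spots (137 and 122) were left out, repeated spots averaged, and log2 signals set against the array's 75th percentile. A probe counted as well above background when more than 0.5 of its spots were flagged so, which held for 47.4% and 46.4% of probes. Accessions without versions named 27226 of 55664 probes through RefSeq (GRCm38.p6). A gene took its probe with the highest mean signal and entered when that probe was bright enough on either array; with 1 dim array the difference is a bound, written "at least". The technical median error was 0.21. The number of arrays limits the precision. Named genes were all members, pathway genes in a complex with them, and the 4 largest differences per role and direction past 2-fold; for marker lists the 2 largest. Genes named outside this rule, after their values were seen, include Kit, Cd34 and Ly6a (the sort), Lbp and Irf3 (roles), Irak2, Irak4 and Cd80 (probes that disagree), marker genes under 2-fold or brightest in a summed list, and genes not well above background. Members, lists and alternatives were chosen with earlier results of these data known. The calculation was tested on simulated data, with known differences only in genes well above background on both arrays. The rule for bounds was therefore not tested. Normexp and quantile steps used limma 3.58.1 in R 4.3.3; normexp took the median spot signal, because the files used here hold no mean signal column. The motif search was exact on the letters given.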

Additional observations from a re-analysis of the deposited data

How the results depend on the processing

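Of 72 member differences recomputed under alternatives, 62 moved by less than their technical error, 10 moved by more, and 0 of those past 2-fold changed sign. For other named genes, 351 of 431 values moved by less than that error and 0 past 2-fold changed sign. Part of these counts was fixed by design. Every measured member was well above background on both arrays, so settings that change only that filter returned the same values. The probe mean could change only Tlr7, the only member with more than 1 probe. The deposited table is nearly the same signal over a constant. Normexp correction left 1 member at least 2-fold higher in bone marrow (Cd14), 2 pathway genes higher in fetal liver, and 379 and 607 of all genes higher in fetal liver and bone marrow. Spike-in scaling left 2 pathway genes higher in fetal liver, gave 509 and 1757 of all genes and a member median of -0.37. Without the filter on dim probes all genes gave 1683 and 1659, and Tlr1 and Tlr3, dim on both arrays, had values of -1.04 and 0.14. At 1.5-fold, 9 and 36 pathway genes and 2347 and 1998 of all genes passed. The other counts stayed within 1.5 times, and median, quantile, probe-mean and outlier settings and the authors' deposited table all kept 2 members past 2-fold on the bone marrow side and 0 on the other. No paired analysis was possible because each group has 1 array. Signal over background limits Tlr1, Tlr3, Tlr4 and the fetal liver values of Cd14 and Tlr6.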

Other observations

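Several pathway genes had probes that gave different answers, and they are named here because of that. Irak2, a kinase of the MYD88 complex, differed by 0.19 on its brightest probe, while its lowest probe differed by -2.07. Cd80, a costimulatory ligand, ran from -1.09 to 0.62 over its probes. Irak4, the first kinase recruited by MYD88, ran from -1.13 to -0.60. Probes of 1 gene can lie in different transcript forms, and which forms these probes detect was not analysed here.

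The 8 dendritic cell markers held genes on both sides, 3 positive and 5 negative, with a median of -0.42. Of these, 2 passed 2-fold on the fetal liver side and 0 on the other, beside 6.73% and 8.18% of all genes. Spike-in scaling left 1 on the fetal liver side and gave 2 on the bone marrow side. Ccr9, which guides cells to the thymus and gut, was at 2.51 ± 0.23 (1.44 with normexp correction). Zbtb46, a factor of conventional dendritic cells, was at 1.26 ± 0.36 (0.93 under spike-in scaling and 0.46 with normexp correction). Its signals of 14.9 (bone marrow) and 26.8 (fetal liver) were low but well above background. Siglech, a surface lectin of plasmacytoid cells, differed by 0.04 ± 0.20. Flt3 (-0.89), Irf8 (-0.80), Bst2 (-0.59), Tcf4 (-0.49) and Itgax (-0.34) lay on the bone marrow side. TLR7 and TLR9 are the receptors that plasmacytoid dendritic cells are known for. Here Tlr7 and Tlr9 differed by -0.08 and 0.02 (-0.42 and -0.32 under spike-in scaling), and a link to these cells was not tested. The erythroid markers were higher in fetal liver, 3 of 5 measured at least 2-fold, led by Hbb-bt (2.99 ± 0.20) and Hba-a1 (1.501 ± 0.20), while Klf1 (0.68 ± 0.38) and Slc4a1 (0.74 ± 0.23) were under 2-fold.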
